A study of Homo sapiens with 4 samples.

Results

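The cytosolic ribosomal protein genes are described here in U251 cells, an established human glioblastoma cell line, with and without knockdown of PRMT3. The members were taken by gene symbol (RPL or RPS with a number, which a single A, X, Y or L and a further number may follow, RPLP0 to RPLP2, and RPSA) and are 83 of the 15575 genes in the count table. They comprised 30 genes of the small subunit, 46 genes of the large subunit and 7 paralogs of core genes, and 81 of the 83 passed the filter on low counts and were tested. RPL12L3 and RPS4Y1 were not tested, with at most 5 counts in any library, and the identifier listed as RPL12L3 is annotated in GENCODE as a processed pseudogene of RPL12.

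Ctrl cells carried a lentiviral control shRNA and PRMT3-KD cells a lentiviral PRMT3 shRNA, both collected at 72 h, and poly(A) selection or depletion of ribosomal RNA is not stated for these libraries. Each group had 2 libraries, and the shRNA clone is not named for them. The labels do not say whether the libraries of a group came from separate cultures, so the p-values measure the spread between these libraries, which may be technical. Both groups were infected, and uninfected cells were not analysed here.

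A ribosome is built from ribosomal RNA and one copy of most ribosomal proteins, so cells make these proteins in balanced amounts. Their mRNAs are among the most abundant in growing cells, and most begin with a 5′ terminal oligopyrimidine (TOP) tract, a C followed by a run of pyrimidines, through which the mTOR pathway and LARP1 control their translation. PRMT3 is a cytosolic arginine methyltransferase whose best known substrate is a protein of the small subunit, so the comparison asks whether mRNAs of the ribosome changed when the enzyme was depleted.

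Total counts per library were 24804250 to 29756313. PRMT3 itself was at 19.3 and 19.4 CPM (counts scaled to a common library total with TMM factors) in Ctrl libraries and 3.03 and 1.58 CPM in PRMT3-KD libraries, a log2 fold change of -3.08 (standard error, SE, 0.314, edgeR adjusted p = 0.0177). VIM, CD44, NES and EGFR, glioma and astroglial markers, had at least 4556 counts in every library, while the oligodendrocyte genes MBP and MOG and the leukocyte genes PTPRC and CD14 had at most 13. The neuronal genes SYT1 and SNAP25 had 278 to 398 and 78 to 127 counts, and the endothelial genes VWF and CDH5 had 30 to 70 and 129 to 722, and their part in the results was not tested. Of the astroglial markers, GFAP was counted 363 and 392 times in Ctrl against 32 and 153 times in PRMT3-KD libraries, S100B had 49 to 80 counts, SOX9 had 6772 and 6703 in Ctrl against 3704 and 4666 in PRMT3-KD libraries, and CHI3L1 had at most 2. The Ctrl libraries differed from each other by little more than counting error (chi-square of 1.42 per gene, where counting error alone gives about 1), and the PRMT3-KD libraries differed by far more (63.6 per gene). Over the members alone these ratios were 3.05 and 61.1. The ratios were scaled by total counts and not by the TMM factors, so they hold any difference in scale that TMM removes. These factors were 1.0113 and 1.0107 for the Ctrl libraries and 1.0246 and 0.9549 for the PRMT3-KD libraries.

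The members as a group were nearly level between the groups, with a few genes standing apart. Among the 81 tested, 8 fell in PRMT3-KD cells and 1 rose (adjusted p under 0.05, edgeR's quasi-likelihood test). The share that fell, 9.88%, was near the 8.91% of all 13172 genes called lower, and the share that rose, 1.23%, stood beside 8.39% of all genes called higher. With a change of over 1.5-fold also required, RPL14 and RPS25 were called lower, where 5.97% of all genes were called lower and 4.97% higher. RPL14 fell the most, to 0.55 of its Ctrl level, followed by RPS25 and RPL29. The 1 member that rose was the paralog RPS27L.

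The calls depended on which libraries were kept. Without Ctrl replicate 1 or without Ctrl replicate 2, edgeR called 0 of all genes tested, and 2 members were lower at an unadjusted p under 0.05. Without PRMT3-KD replicate 1 it called 30 members lower and 27 higher, and without PRMT3-KD replicate 2 it called 28 lower and 30 higher, where 8841 of 13408 and 8809 of 13423 genes tested were called.

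**Figure D1:**
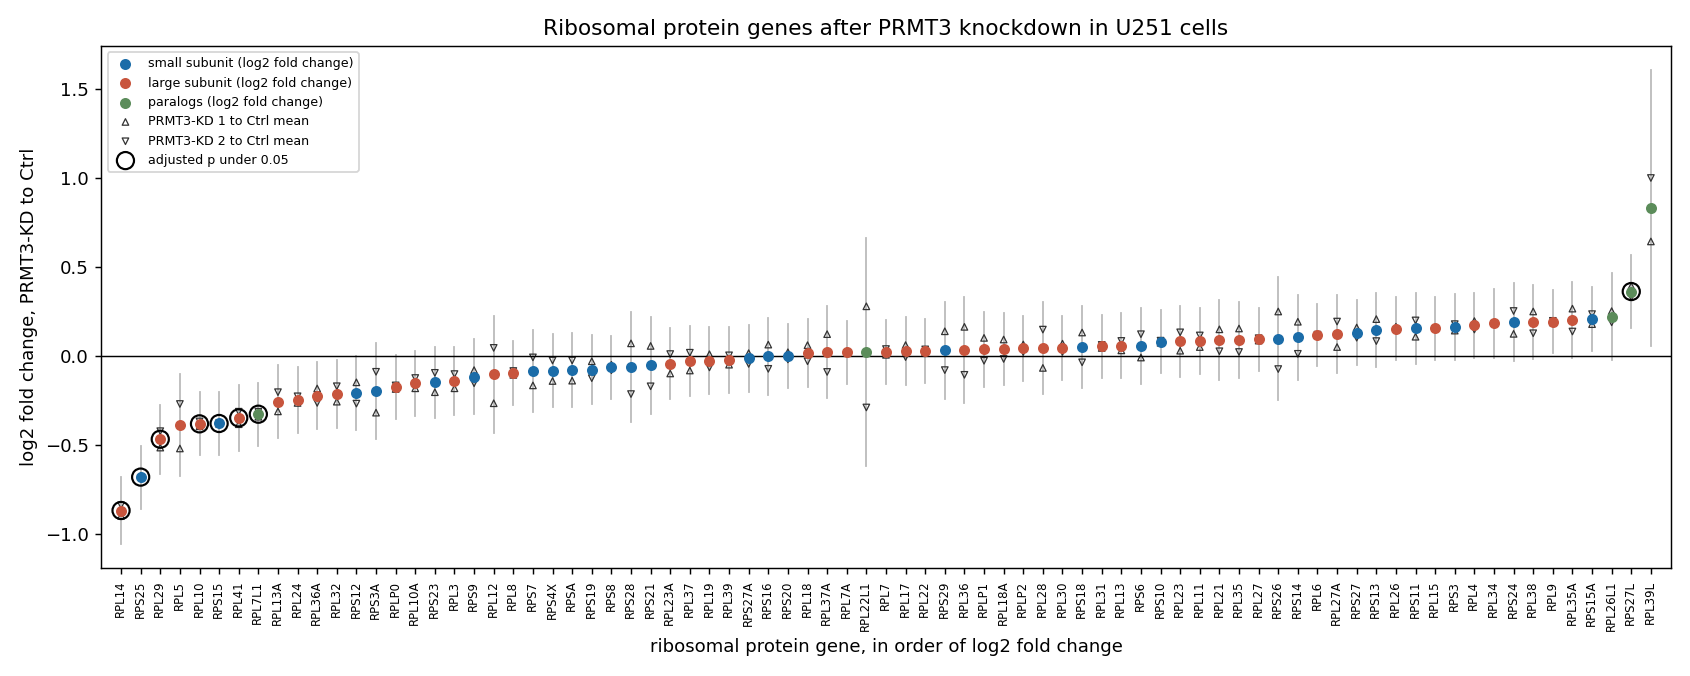
Log2 fold change between PRMT3-KD and Ctrl libraries (y axis) for 79 of the 81 tested members in rank order (x axis). Filled points are edgeR estimates coloured by subunit, grey lines are 95% intervals, open triangles are the 2 PRMT3-KD libraries against the Ctrl mean, and black rings mark members with an adjusted p under 0.05. Most points lie close to 0, with RPL14 at -0.87 and RPL39L at 0.83 at the ends.

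The sequences at the start of the mRNA are shown for the called members because the TOP tract is the feature that ribosomal protein mRNAs share and the choice by symbol did not use. Each line gives 30 bases of the plus or minus strand around a transcription start annotated by RefSeq (GRCh38.p14), with 15 bases before the start and 15 from it on, and capitals mark a pyrimidine run that opens with C at the start and has at least 5 bases. The start with the longest run was taken where a gene has several.
RPL14: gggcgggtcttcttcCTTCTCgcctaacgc
RPS25: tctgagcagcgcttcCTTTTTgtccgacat
RPL29: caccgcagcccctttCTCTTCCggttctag
RPL10: caggcggaggagcgcCTCTTTCCCTTCggt
RPL41: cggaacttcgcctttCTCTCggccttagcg
RPS15: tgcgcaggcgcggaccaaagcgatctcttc
RPL7L1: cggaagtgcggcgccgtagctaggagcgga
RPS27L: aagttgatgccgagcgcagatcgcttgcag

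These windows lie at chr3:40457324-40457353 (plus strand) for RPL14, chr11:119018329-119018358 (minus) for RPS25, chr3:51995881-51995910 (minus) for RPL29 and chrX:154398362-154398391 (plus) for RPL10. Those of RPL41, RPS15 and RPL7L1 lie on the plus strand at chr12:56116618-56116647, chr19:1438381-1438410 and chr6:42879601-42879630, and that of RPS27L lies on the minus strand at chr15:63157463-63157492. The 5 core genes RPL14, RPS25, RPL29, RPL10 and RPL41 open with runs of 5 to 12 pyrimidines at the annotated start. RPS15 has a run of 1 base, and both paralogs start with a purine. A C at the annotated start followed by at least 4 pyrimidines was found for 48 of the 67 members with a RefSeq window (71.6%) and for 5.14% of all 27305 genes with one.

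A run exactly at the annotated start did not separate the members that changed from the rest. The 47 tested members with such a start had a median log2 fold change of 0.02 and 5 of them fell (10.6%). The 19 without it had a median of 0.03, of which 2 fell (10.5%) and 1 rose. A run that begins within 10 bases of the start was found for 59 of the 67 members (88.1%), RPS15 among them, and for 38.4% of all genes. The split thus depends on the exact start annotated, and the tract itself was not tested. Other promoter sequences were sought on both strands of the 300-base windows from 250 bases before to 50 after the start. CCGGAAG, the core of the binding sequence of ETS factors such as GABPA, was in a window of 35.8% of the members and 12.2% of all genes, AAGATGGC, bound by YY1, in 10.4% and 3.52%, and CACGTG, the E-box bound by MYC, in 7.46% and 8.77%. CTTT close to the start was found in 65.7% and 12.8%. These matches describe the letters and do not show binding.

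RPL14, a protein of the large subunit, fell the most. Its gene (chr3:40498783-40510078, plus strand, GRCh37) had 584 and 565 CPM in Ctrl libraries and 309 and 322 CPM in PRMT3-KD libraries. Both PRMT3-KD libraries were far below both Ctrl libraries. The log2 fold change was -0.87 (SE 0.0709, edgeR adjusted p = 0.0142). It was -0.84 and -0.89 without Ctrl replicate 1 and 2, where the adjusted p was 0.169 and 0.147.

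RPS25 is a protein of the small subunit that is needed for initiation at several internal ribosome entry sites. Its gene lies on the minus strand at chr11:118886422-118889401 (GRCh37). It had 216 and 217 CPM in Ctrl and 136 and 135 CPM in PRMT3-KD libraries. The libraries of each group were almost equal, and the groups did not overlap. The log2 fold change was -0.68 (SE 0.0662, edgeR adjusted p = 0.0172). Its exons overlap those of CENATAC on the other strand, and it is not stated whether reads were counted by strand.

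RPL29, a protein of the large subunit also known for binding heparin, had 367 and 363 CPM in Ctrl and 255 and 272 CPM in PRMT3-KD libraries. Its gene lies on the minus strand at chr3:52027538-52029911 (GRCh37) and has 33 annotated pseudogenes. The PRMT3-KD libraries were both lower, by a log2 fold change of -0.47 (SE 0.0726, edgeR adjusted p = 0.0268). RPL10, which joins the large subunit late and allows it to pair with the small subunit, had 679 and 673 CPM in Ctrl and 514 and 524 CPM in PRMT3-KD libraries. This was a log2 fold change of -0.38 (SE 0.0666, edgeR adjusted p = 0.0326), again without overlap. RPL10 (chrX:153618315-153637504, plus strand) has 19 annotated pseudogenes and shares exon bases with DNASE1L1 on the other strand.

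RPS15 sits in the head of the small subunit and is needed for export of the subunit precursor from the nucleus. Its gene lies at chr19:1438357-1440494 (plus strand, GRCh37). It had 357 and 352 CPM in Ctrl and 272 and 273 CPM in PRMT3-KD libraries. It was lower in each PRMT3-KD library, with close values within a group, and the log2 fold change was -0.38 (SE 0.0658, edgeR adjusted p = 0.0323).

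RPL41, the smallest ribosomal protein, forms a bridge between the subunits and is encoded at chr12:56510374-56511751 (plus strand). It had 742 and 750 CPM in Ctrl and 573 and 601 CPM in PRMT3-KD libraries. The log2 fold change was -0.35 (SE 0.0702, edgeR adjusted p = 0.0415), with both PRMT3-KD libraries below both Ctrl libraries.

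For RPL29, RPL10, RPS15, RPL41 and RPL7L1 the adjusted p rose above 0.05 with the replicate number as a block (0.0539 to 0.112, edgeR), and 2 members, RPL14 and RPS25, were still called lower in that fit. DESeq2 called the same 8 members lower and 0 higher, with 1 higher at an unadjusted p under 0.05.

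**Figure D2:**
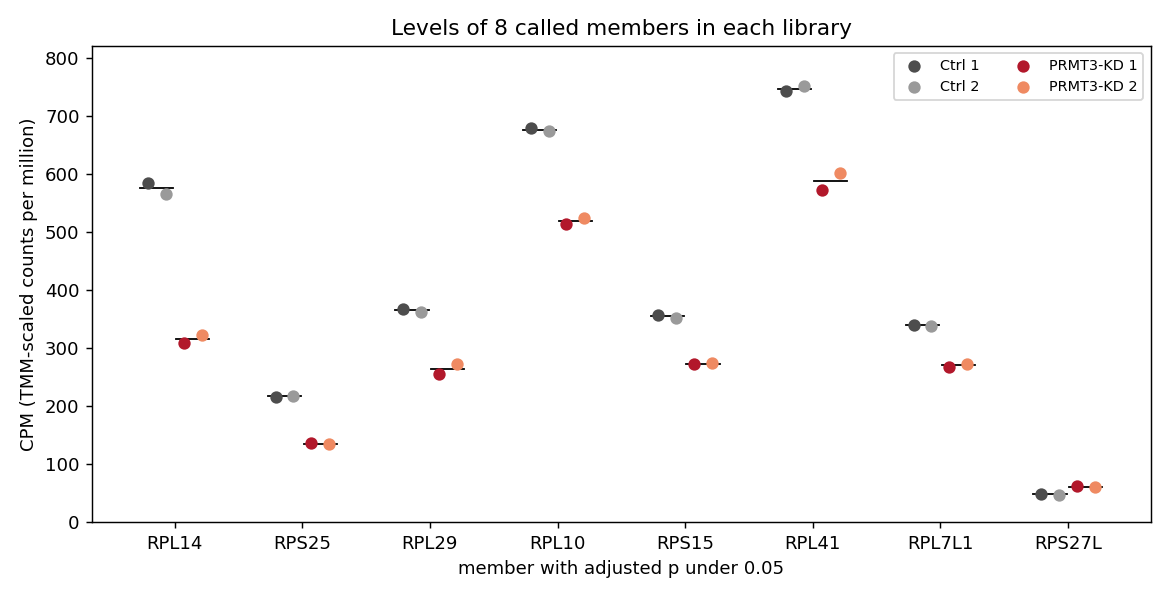
TMM-scaled CPM (y axis, from 0) of 8 of the 9 members with an adjusted p under 0.05 (x axis). Each point is 1 library, grey for Ctrl and red or orange for PRMT3-KD, and black lines are group means. RPL14 stands at 584 and 565 against 309 and 322 CPM, and RPS27L is the 1 gene with the PRMT3-KD points above those of Ctrl.

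The small subunit genes had a median log2 fold change of -0.01 and the large subunit genes a median of 0.03, where the median of all genes tested was 0.01. In the small subunit 3 of 30 genes fell (10%), RPS15 and RPS25 among them. In the large subunit 4 of 46 fell (8.7%), RPL10, RPL14, RPL29 and RPL41. Both shares were near the 8.91% of all genes called lower. Relative to the Ctrl mean, the small subunit median was 0.04 for PRMT3-KD replicate 1 and -0.04 for replicate 2, so its sign differed between the libraries. For the large subunit it was 0.03 and 0.02. The share of all counts on the small subunit genes came to 1.40% and 1.38% in Ctrl libraries and 1.38% and 1.29% in PRMT3-KD libraries. The large subunit genes took 2.51% and 2.49% in Ctrl and 2.43% and 2.29% in PRMT3-KD libraries. Both PRMT3-KD values for the large subunit were below the Ctrl values, while for the small subunit PRMT3-KD library 1 lay between them. The ratio of small to large subunit counts stood at 0.557 and 0.553 in Ctrl libraries against 0.569 and 0.564 after PRMT3 knockdown, and an exact permutation test of 2 libraries against 2 cannot give a p below 0.333. Fewer cells and less RNA per cell cannot be told apart in bulk libraries.

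Most members lay within a narrow range. Of the 81, 62 (76.5%) had a log2 fold change within 0.2 of 0, which held for 36% of all genes tested. The members are highly expressed, so they were also set beside the 1269 other genes at or above 154 CPM in Ctrl, a level that 90.1% of the members reached, of which 41.3% were within 0.2. The interquartile range of the log2 fold change was 0.195 for the members, 0.525 for these genes and 0.588 for all genes. Related genes had a like range, with an interquartile range of 0.175 and 71.4% within 0.2 for 14 other genes with TOP mRNAs, and 100% within 0.2 for the 4 ribosomal proteins outside the choice by symbol. The shares called lower and higher among the genes of like level were 15.8% and 8.83%. These genes were chosen by a floor on the Ctrl level alone, without an upper limit. Genes that fell from above the floor are kept and genes that rose from below it are left out, which favours calls of lower. No test was run between these lists, whose genes are not independent replicates.

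Separation of the libraries was about as common in the members as in all genes. In 32 members (39.5%) both PRMT3-KD libraries were above both Ctrl libraries, where 33.3% of all genes did so, and in 25 (30.9%) both were below, against 33.8% of all genes. The shares are near the background, and they include shifts as small as that of RPL7A, with 807 and 797 CPM in Ctrl and 818 and 811 CPM in PRMT3-KD libraries. The 95% interval of the log2 fold change had a median half-width of 0.193 over the members, so differences of that size could not be told from 0 for a typical member.

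**Figure D3:**
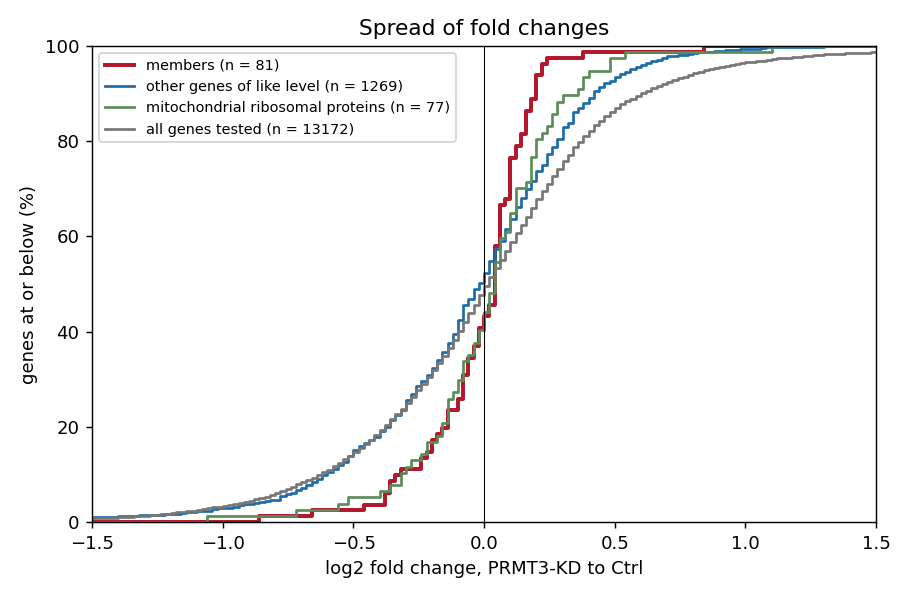
Cumulative share of genes (y axis, %) at or below a log2 fold change (x axis, PRMT3-KD to Ctrl) for the 81 members, 1269 other genes of like level, 77 mitochondrial ribosomal protein genes and all 13172 genes tested. The curve of the members is the steepest of the 4 around 0, with 76.5% of the members within 0.2 of 0.

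The proteins of the lateral stalk, RPLP0, RPLP1 and RPLP2, recruit the translation factors that hydrolyse GTP. RPLP0 had 2183 and 2190 CPM in Ctrl and 1924 and 1950 CPM in PRMT3-KD libraries, a log2 fold change of -0.17 (edgeR adjusted p = 0.142). RPLP1 and RPLP2, which form the dimers bound to RPLP0, had log2 fold changes of 0.04 and 0.04 (95% intervals -0.17 to 0.25 and -0.14 to 0.23). The RPLP0 libraries did not overlap between groups, and those of RPLP1 did.

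RPL5 and RPL11 bind the 5S ribosomal RNA together, and the complex can also bind and inhibit the ubiquitin ligase MDM2. RPL5 had 604 and 586 CPM in Ctrl and 415 and 494 CPM in PRMT3-KD libraries. Both PRMT3-KD libraries were lower but differed from each other, and the log2 fold change of -0.39 was not called (edgeR adjusted p = 0.0739). It was called by limma-voom with group weights (adjusted p = 0.0213) and by edgeR with library totals only (adjusted p = 0.0440). The log2 fold change was -0.27 without PRMT3-KD replicate 1 and -0.52 without PRMT3-KD replicate 2. RPL11 had 640 and 630 CPM in Ctrl and 658 and 688 CPM in PRMT3-KD libraries, a log2 fold change of 0.08 (edgeR adjusted p = 0.439).

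The 7 proteins around the exit of the nascent peptide tunnel, RPL17, RPL19, RPL23A, RPL26, RPL31, RPL35 and RPL39, had log2 fold changes between -0.04 and 0.15. None of them was called by edgeR, DESeq2 or limma-voom with all libraries kept. In the edgeR fit 0 had an unadjusted p under 0.05, where 4950 of all 13172 genes tested did. A list of 11 of the genes in which loss-of-function alleles cause Diamond-Blackfan anaemia, a failure of red cell formation, ranged from -0.39 for RPL5 to 0.20 for RPL35A, with a median of 0.08. In this list the main edgeR fit and DESeq2 called 0, limma-voom called RPL5, and 1 gene had an unadjusted p under 0.05 (edgeR). Their PRMT3-KD libraries lay above both Ctrl libraries for 7 of the 11 and below for 2, where 33.3% and 33.8% of all genes did so, and with 11 genes nothing particular to the list is read from this.

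Some other members came near the threshold. RPL24, RPL13A and RPL36A had log2 fold changes of -0.24, -0.26 and -0.22 (edgeR adjusted p = 0.0781, 0.0867 and 0.0989), and limma-voom called RPL13A lower. The highest values among the core genes were 0.21 for RPS15A and 0.20 for RPL35A (edgeR adjusted p = 0.103 and 0.147). RPL12 differed within the PRMT3-KD group, at 632 and 784 CPM, beside 759 and 759 CPM in Ctrl libraries. Its log2 fold change was -0.10 with a 95% interval of -0.43 to 0.23.

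Of the 5 paralogs tested, RPS27L rose and RPL7L1 fell. RPS27L, on the minus strand at chr15:63418071-63450220 (GRCh37), had 48.5 and 47.2 CPM in Ctrl and 62.8 and 60.2 CPM in PRMT3-KD libraries. The PRMT3-KD libraries were both higher, by a log2 fold change of 0.36 (SE 0.0760, edgeR adjusted p = 0.0446). This call was lost with DESeq2 (adjusted p = 0.0573), with library totals only (0.0968), with the loosest filter on low counts (0.0521) and with the replicate block (0.0993). Its core partner RPS27 had a log2 fold change of 0.13 (edgeR adjusted p = 0.240). For each 100 counts of RPS27 there were 16.1 and 16.1 counts of RPS27L in Ctrl and 18.9 and 18.9 in PRMT3-KD libraries.

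RPL7L1, related to RPL7 and described as a factor of large subunit assembly, lies at chr6:42847354-42857663 (plus strand, GRCh37). It had 340 and 339 CPM in Ctrl and 268 and 273 CPM in PRMT3-KD libraries. The log2 fold change was -0.33 (SE 0.0661, edgeR adjusted p = 0.0415), with no overlap. RPL7 itself was at 545 and 548 CPM in Ctrl and 549 and 561 CPM in PRMT3-KD libraries. RPL7L1 thus had 62.4 and 61.8 counts for each 100 counts of RPL7 in Ctrl and 48.8 and 48.6 in PRMT3-KD libraries.

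RPL39L, a paralog best known from the testis, was counted 41 and 30 times in Ctrl against 51 and 73 times in PRMT3-KD libraries. The log2 fold change of 0.83 was the highest of the members and was not called (SE 0.291, edgeR adjusted p = 0.116). It had 0.413 and 0.314 counts for each 100 of RPL39 in Ctrl and 0.589 and 0.727 in PRMT3-KD libraries. RPL26L1 had a log2 fold change of 0.22 (edgeR adjusted p = 0.163) beside 0.15 for RPL26. RPL22L1 was counted 401 and 321 times in Ctrl against 403 and 304 times in PRMT3-KD libraries, with a 95% interval of the log2 fold change from -0.62 to 0.66, and RPL22 had a log2 fold change of 0.03. The differences between paralog and core gene were not tested.

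**Figure D4:**
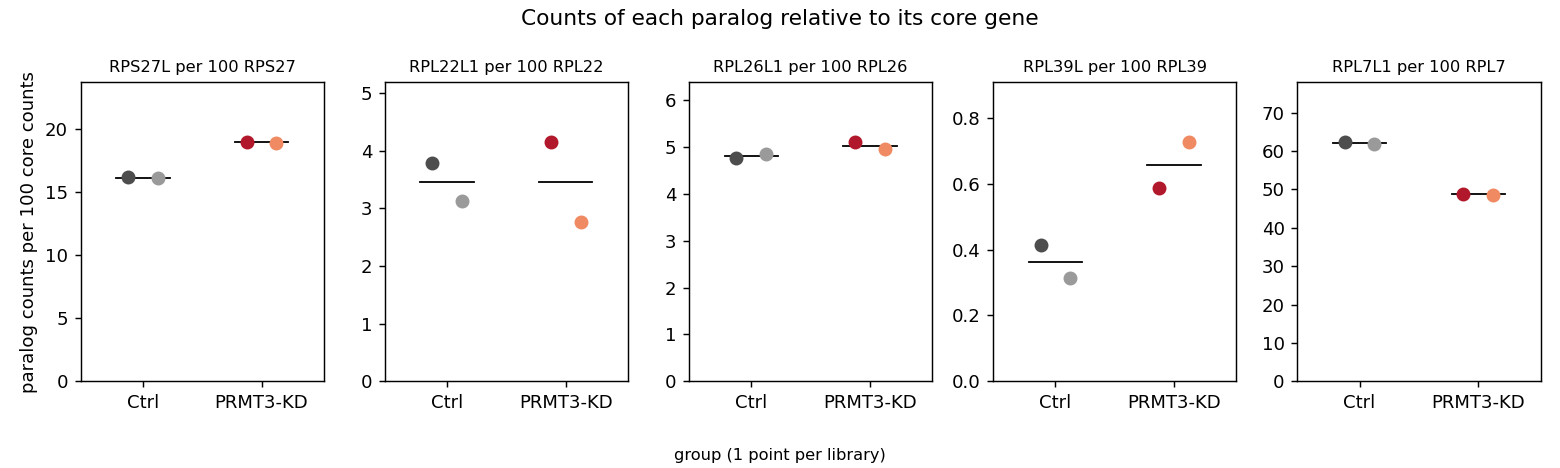
Counts of each paralog for each 100 counts of its core gene (y axes, each from 0) in Ctrl and PRMT3-KD libraries (x axis). Points are libraries, replicate 1 to the left of replicate 2 in each group, and lines are group means. RPL7L1 goes from 62.4 and 61.8 to 48.8 and 48.6, RPS27L from 16.1 and 16.1 to 18.9 and 18.9, and the libraries overlap for RPL22L1.

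Levels were compared between members per kilobase of coding length, since mRNA lengths differ. RPL41, with a coding length of 75 bases, had the highest value at 9952 CPM per kb in Ctrl, a scale that overstates a gene whose mRNA lies mostly outside the coding sequence. RPLP1, RPL39 and RPLP0 followed, at 2436, 2304 and 2299 CPM per kb. The lowest were RPL39L, RPL22L1, RPL26L1 and RPS27L, at 8.40, 35.7, 44.2 and 190 CPM per kb, and RPL34 was the lowest core gene at 249. The paralogs other than RPL7L1, at 443 CPM per kb, were therefore below every core gene.

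**Figure D5:**
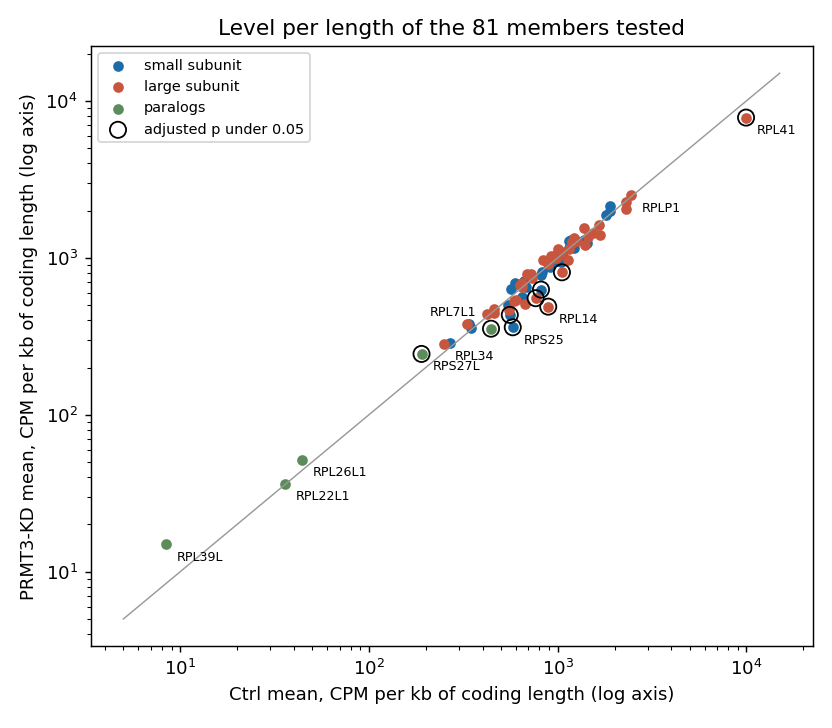
Mean level of the 81 tested members in Ctrl (x axis) and PRMT3-KD libraries (y axis), both in CPM per kb of coding length on log axes. Each point is 1 gene coloured by subunit, the line marks equal levels and rings mark the 9 members with an adjusted p under 0.05. The members lie along the line from RPL39L at 8.40 to RPL41 at 9952 CPM per kb in Ctrl.

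Several features of the genes bear on how they were counted. GENCODE lists 1574 pseudogenes of the members, with a median of 12 each, and reads from near-identical copies may be split or lost. The table itself has 86 rows of ribosomal protein pseudogenes, and some of these are copies of a gene that is not a member. Together the 86 rows held 1.46% and 1.5% as many counts as the members in Ctrl and 1.61% and 1.61% in PRMT3-KD libraries. RPL9P9, at 324 and 331 CPM in Ctrl and 370 and 352 CPM in PRMT3-KD libraries, exceeded RPL9 itself, at 190 and 193 CPM in Ctrl and 218 and 219 CPM in PRMT3-KD libraries, so the value of RPL9 is uncertain. Exons of 32 members overlap those of another annotated gene, in 26 cases on the other strand. Within 28 member genes lie 56 snoRNAs, small RNAs that guide modification of ribosomal RNA. These 28 had a median log2 fold change of -0.01 and 1 of them fell (3.57%), RPL10. The 53 without had a median of 0.03, of which 7 fell (13.2%) and 1 rose. Of all genes 8.91% were called lower and 8.39% higher. The split was chosen after its values were seen, and the difference was not tested.

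The sequence CAGCTCA was sought in the sense strand of the coding sequences because an earlier re-analysis of the same counts, not the published study, had found lower expression in genes that hold it, so the values are no independent support. It was in 7 of the 81 tested members, against 23.5% of the 12754 genes with a coding sequence, which are longer (median 1434 bases, against 453 in members). Sites of 6 of them are shown with 10 bases on each side, read from GENCODE transcripts of GRCh37, and the capitals mark the match.
RPL14: caagtgcatgCAGCTCActgatttcat
RPL29: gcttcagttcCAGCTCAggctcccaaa
RPL7L1: acgcatcaatCAGCTCAtccgtcagct
RPL13A: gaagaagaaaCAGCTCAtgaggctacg
RPS7: cctcaaggctCAGCTCAgggagctgaa
RPL11: ggtgttggagCAGCTCAcagggcagac

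The matches begin at base 166 of the coding sequence in RPL14, 431 in RPL29, 745 in RPL7L1, 517 in RPL13A, 115 in RPS7 and 124 in RPL11, and the one not shown is in RPL8. The log2 fold changes of these 7 genes ran from -0.87 in RPL14 to 0.08 in RPL11, with a median of -0.26, and 3 fell, RPL14, RPL29 and RPL7L1. The 74 members without it had a median of 0.03, and 5 fell and 1 rose. Among all genes tested, 14.3% of those with it and 7.36% of those without it in the coding sequence were called lower. The 8 members that hold it only outside the coding sequence had a median of 0.05 and include RPS27L, which rose. Of all genes tested, 4780 hold it anywhere in the transcript, and 683 of these were called lower and 277 higher. For the 7974 without it in the transcript, 465 were called lower and 819 higher. Whether its place in the transcript matters was not tested. RPS25, which fell by 0.68, does not hold CAGCTCA.

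None of the ribosomal proteins outside the choice by symbol was called by edgeR with all libraries kept. FAU, which encodes a ribosomal protein fused to a ubiquitin-like sequence, had a log2 fold change of -0.11 (95% interval -0.39 to 0.18). RPL36AL and RACK1 had -0.08 and 0.07. Still with all libraries kept, 0 of the 4 listed genes tested were called by edgeR, DESeq2 or limma-voom. In the edgeR fit 0 of them had an unadjusted p under 0.05. The 14 other genes with TOP mRNAs, which encode elongation and initiation factors and related proteins, had a median of 0.09. With all libraries kept, edgeR and DESeq2 called 0 of them, and limma-voom called BTF3 and EEF2 higher. In the edgeR fit 4 had an unadjusted p under 0.05, where 4950 of all 13172 genes tested did.

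The 14 regulators of ribosomal protein synthesis had an interquartile range of the log2 fold change of 0.561. It was 0.195 for the members and 0.588 for all genes tested. Of the regulators 4 fell (28.6%) and 1 rose (7.14%), where 8.91% of all genes were called lower and 8.39% higher. These differences were not tested. DESeq2 and limma-voom each called 6 of the regulators lower, without RPTOR, and 1 higher. With the replicate block edgeR called 3 lower and 1 higher, and the genes called lower were not all those of the main fit. RPS6KB1, the S6 kinase that phosphorylates RPS6, had 59.3 and 58.4 CPM in Ctrl and 35.9 and 33.8 CPM in PRMT3-KD libraries, a log2 fold change of -0.76 (edgeR adjusted p = 0.0182). MDM2 and CDKN1A, an inhibitor of cyclin-dependent kinases, had log2 fold changes of -0.57 and -0.58 (edgeR adjusted p = 0.0226 and 0.0263), and with the replicate block MDM2 was still called and CDKN1A was not (adjusted p = 0.0502, edgeR). RPTOR, the scaffold of the mTOR complex that drives TOP mRNA translation, had a log2 fold change of -0.34 (edgeR adjusted p = 0.0495), a call kept in 3 of 8 alternatives and lost with DESeq2, limma-voom, library totals only, the loosest filter and the replicate block. LARP4, which protects the poly(A) tails of ribosomal protein mRNAs, rose from 80.9 and 81.4 CPM to 126 and 121 CPM, a log2 fold change of 0.60 (edgeR adjusted p = 0.0193).

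The mitochondrial ribosomal proteins make up a separate ribosome encoded by nuclear genes, and 77 of 80 were tested. Their median log2 fold change was 0.03, with 63.6% within 0.2 of 0. In edgeR 5 rose (6.49%) and 4 fell (5.19%), where 8.39% of all genes were called higher and 8.91% lower. DESeq2 and limma-voom each called 5 higher and 3 lower, with MRPL17 but without MRPL11 and MRPS7, and the fit with the replicate block called 1 higher, MRPS6, and 3 lower, MRPL12, MRPL17 and MRPL51. MRPS6 rose from 49.1 and 49.4 CPM to 98.2 and 111 CPM, a log2 fold change of 1.09 (edgeR adjusted p = 0.0148). MRPL12 had 64.9 and 63.7 CPM in Ctrl and 36.3 and 25.1 CPM in PRMT3-KD libraries, a log2 fold change of -1.07 (edgeR adjusted p = 0.0344). The difference between the cytosolic and the mitochondrial genes was not tested.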

How the data were processed

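RNA from U251 cells was sequenced in 2 Ctrl and 2 PRMT3-KD libraries, grouped by their labels. The authors deposited whole-number counts per gene without normalization. The submitters' processing notes name CASAVA, TopHat, Cufflinks, DESeq2 and hg19, and versions, annotation and strandedness are not given in the sources used here. Of 15576 entries 1 duplicate was removed. The counts were tested in R 4.3.3 with edgeR 4.0.16 (filterByExpr with minimum count 10 and total 15, TMM, quasi-likelihood test), with Benjamini-Hochberg adjustment over 13172 genes, without covariates. Calls need an adjusted p under 0.05. CPM are TMM-scaled, and SE were derived from the F statistic. Total counts of 24804250 to 29756313 limit the precision of low genes, and intervals cover the model's error only.

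The members and lists were chosen with earlier results of these data known. Named members are those called, the 5 highest and 5 lowest by log2 fold change and by level per coding length, the paralogs and their partners, the stalk, 5S, tunnel exit and Diamond-Blackfan genes and those not tested. RPL24, RPL13A, RPL36A, RPL12, RPL7A, RPL9P9, the mitochondrial genes, and the CAGCTCA and snoRNA splits were chosen after their values were seen. Of the genes that fit the symbols or lists, 1 is in none of the member counts, shares and ratios, and some others are not reported here by name.

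Annotation came from GENCODE 44 on GRCh37 (Python 3.11.15, pandas 2.3.3) and start windows from RefSeq. Alternatives were DESeq2 1.42.0, limma-voom (limma 3.58.1) with group weights, upper-quartile factors, library totals, TMM without the members, 2 other filters, the replicate block and leaving out each library. The scripts were tested on simulated data.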

Additional observations from a re-analysis of the deposited data

How the results depend on the processing

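The number of members called lower was 8 with DESeq2, upper-quartile factors, TMM without the members and both other filters, all the same genes. It was 9 with library totals only and 10 with limma-voom, both including those 8 and RPL5. It was 2 with a change of over 1.5-fold required and 2 with the replicate block, and 0 to 30 with each library left out in turn, where the lone library of a group is assumed to vary like the others. The number called higher was 1, and 0 with DESeq2, library totals only, the loosest filter (a gene needs 1 count in 1 library), the replicate block or over 1.5-fold required, and 0 to 30 with each library left out. The replicate numbers are not said to mark a shared batch, and the within-group differences of same-numbered libraries had a correlation of 0.0222 across genes, so the block was not the main design. The block also took all genes called from 2278 to 1656. Library totals only shifted the median of all genes to -0.03 and called 740 genes higher and 985 lower, in place of 1105 and 1173.

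The median of the large subunit genes was -0.0018 with library totals only and 0.016 to 0.037 with each library left out. Members near 0 changed sign with library totals only, RPL7 to -0.0080, RPL22 to -0.0023, RPL17 to -0.0014 and RPL22L1 to -0.0010, and RPL22L1 to -0.0096 with limma-voom. With each library left out in turn, others ranged across 0, RPLP1 from -0.024 to 0.098, RPL39 from -0.053 to 0.0063, RPL17 from -0.0038 to 0.057, RPL19 from -0.062 to 0.0061, RPL23A from -0.10 to 0.014, RPS26 from -0.071 to 0.25 and RPL22L1 from -0.29 to 0.27. The causes were not tested. RPL39L, with 30 to 73 counts, is limited by depth, and 2 libraries per group limit the rest.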

Other observations

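Of the 86 pseudogene rows, 18 passed the filter on low counts, and 0 were called by edgeR, DESeq2 or limma-voom. In the edgeR fit 2 of the 18 had an unadjusted p under 0.05, where 4950 of all 13172 genes tested did. Their median log2 fold change was 0.29. RPL23AP79 had 67.5 and 67.3 CPM in Ctrl and 77.0 and 73.4 CPM in PRMT3-KD libraries, and its adjusted p was 0.197 (edgeR). RPL29P19 had a log2 fold change of -0.74 (adjusted p = 0.158, edgeR), beside -0.47 for RPL29. The differences between pseudogene rows and their parent genes were not tested. The highest CDH5 count, 722, was in PRMT3-KD library 2, and the other 3 libraries had 129 to 146.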
